A study of Homo sapiens with 12 samples.

Results

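The 4035 regions described here are places where histone H3 trimethylated at lysine 79 (H3K79me3) had been counted in 4 related colorectal cancer cell lines, and which lie away from any gene of the deposited annotation. They were chosen by position alone, as the H3K79me3 regions on chromosomes 1 to 18 more than 5 kb from every interval of the H3K27me3 table, whose intervals the rule takes as gene bodies. They were 2.94% of the 137269 H3K79me3 regions on these chromosomes, out of 157878 in the whole table. A further 130475 regions (95.1%) overlapped a gene interval and are called inside, and 2759 lay within 5 kb of one. The intervals carry no names, so regions are given by position on build hg19, and a gene missing from that table would count as gene-free sequence.

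H3K79 methylation is laid down by DOT1L, a methyltransferase that travels with elongating RNA polymerase II, and it covers the first part of actively transcribed gene bodies. It is therefore read as a mark of transcription elongation, and most of its signal is known to fall in genes. H3K4me3, the second mark used below, sits at active promoters. Both marks outside a gene can accompany a transcript that the annotation lacks, and sequence beside centromeres is rich in repeats, where short reads are placed with less certainty.

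DLD1 is an established colorectal adenocarcinoma line, described as epithelial and parental. SA (mesenchymal) was derived from its soft agar colonies, SPH (mesenchymal) from colonospheres, and METS (epithelial) from a lung metastasis in a xenograft. All 4 lines grew with serum in McCoy's 5A, with no further treatment recorded, and gave 1 H3K79me3 library each. Whether the derived lines are clones or pools is not given in the sources used here. Titles call the derivatives parental too, and the descriptions and characteristics tell them apart. Library totals here are the summed counts over all listed regions of a mark, and reads outside those regions are not in them. For H3K79me3 they were 7521451 counts (DLD1), 7273964 (SA), 6165169 (SPH) and 6432882 (METS). Values are CPM, the counts scaled to the library total. Folds carry exact 95% intervals that cover counting error only, because there was 1 library per line and no molecular identifiers are recorded.

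H3K79me3 counts outside genes were low in most regions and very high in a few. The median level, as the mean of the 4 lines, was 0.972 CPM (quartiles 0.180 and 3.35) against 3.47 CPM (1.80 and 7.36) inside genes, at nearly the same median length of 392 and 387 bp. The ratio of the medians was 0.259 (DLD1), 0.28 (SA), 0.211 (SPH) and 0.348 (METS), with a mean of 0.274 ± 0.057 (SD, n = 4 lines). It was below 1 in each of the 4 libraries, and METS had the ratio closest to 1. Under 1 CPM were 50.3% of the outside regions and 9.89% of the inside regions. In 343 outside regions (8.50%) no read was counted in any line, against 0.695% inside genes. At the other end, 7 outside regions exceeded the strongest inside region, which had 107 CPM.

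The outside regions with the highest counts lay beside centromeres. No input library was used, so an effect of repeats on read placement there was not tested. The longest stretch of each chromosome without any region or interval in the 3 tables was taken as its centromere, since by general knowledge of the assembly it falls at the centromere gap or, on chromosomes 13, 14 and 15, at the short arm. Outside regions within 5 Mb of it, a distance chosen after the values were seen, are called centromere-flanking and numbered 1631 (40.4%). The other 2404 are called arm regions. Flanking regions had a median of 1.98 CPM and arm regions 0.533 CPM, and all 7 regions above the inside maximum were flanking. The strongest arm region reached 63.2 CPM. Against the inside median, flanking regions stood at 0.593 (DLD1), 0.680 (SA), 0.474 (SPH) and 0.435 (METS), and arm regions at 0.111, 0.12, 0.105 and 0.261. METS thus had the lowest of these ratios in the flanks and the highest on the arms.

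**Figure D1:**
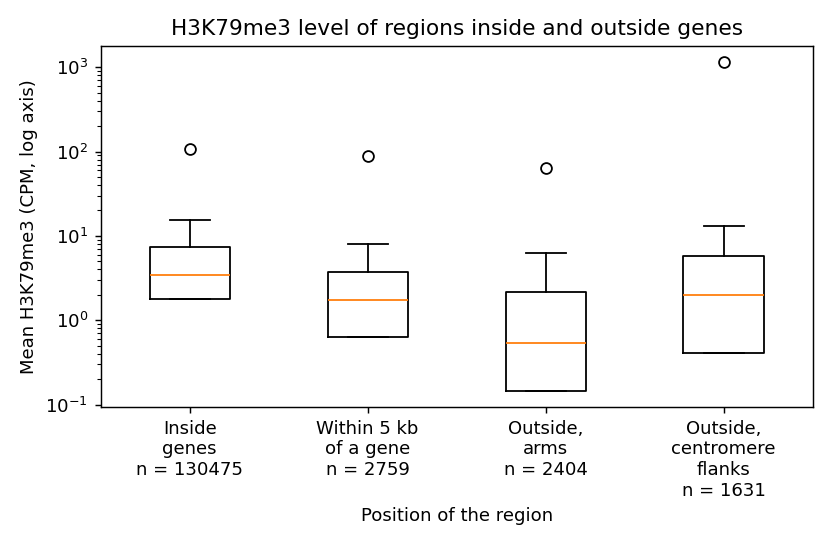
H3K79me3 level of regions by position, as the mean of the 4 lines in CPM on a log axis. Boxes span the quartiles around the median (orange), the upper whisker reaches the 90th percentile and the circle is the strongest region. Arm regions have the lowest median (0.533 CPM), and the strongest flanking region (1141 CPM) lies above the strongest inside region (107 CPM).

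The strongest of all was chr1:121485031-121485448, with 10359 counts (DLD1), 10617 (SA), 5374 (SPH) and 5512 (METS). These were 1377, 1460, 872 and 857 CPM. A neighbour, chr1:121484540-121484929, had 545, 559, 336 and 335 CPM in the same order. DLD1 and SA were high and SPH and METS low in both. Of all outside counts the pair held 10.2% (DLD1), 10.2% (SA), 8.43% (SPH) and 8.38% (METS). Further strong regions were chr18:18519962-18520349, with 197, 211, 131 and 133 CPM, and chr10:42384969-42385294, with 168, 193, 127 and 103 CPM. The 10 strongest outside regions were all flanking, and the same pair of lines was the higher one in each region named here.

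Outside regions were sparse. They had a density of 4.4 per Mb of outside sequence (917 Mb), against 93.8 per Mb inside genes (1390 Mb) and 13.4 per Mb in the 5 kb around genes. Arms held 2.84 per Mb over 847 Mb and the flanks 23.3 per Mb over 70.1 Mb. Of 16329 gaps between genes longer than 10 kb, 1418 (8.68%) held a region, and 1088 of these held 1. At the same time, 67 gaps with 10 regions or more held 2100 of the outside regions (52.0%).

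Arm regions were weaker the farther they lay from a gene. Their median distance was 17.5 kb (quartiles 9.24 and 37.0 kb). Between 5 and 10 kb from a gene the median level was 0.802 CPM (n = 667), between 20 and 50 kb 0.493 CPM (n = 703), and beyond 100 kb 0.293 CPM (n = 158). At the 5 kb limit itself, the 5 regions just outside it (5011 to 5019 bp) had between 0 and 14.6 CPM. The 5 just within it (4979 to 4998 bp) had between 0.0811 and 4.38 CPM. Over more regions the level was higher within the limit, with a median of 1.73 CPM for the 2759 regions within 5 kb of a gene and 0.843 CPM for the 794 outside regions at 5 to 10 kb.

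Joined at gaps of at most 5 kb, the outside regions formed 1804 clusters, of which 1477 were a single region and 215 were runs of 3 regions or more. Runs held 57.8% of outside regions and 92.2% of inside regions. The flanks and the arms differed here. In the flanks 84.4% of regions lay in 97 runs of up to 79 regions, and in the arms 39.9% lay in 118 runs of up to 53, with 53.9% standing alone. Single arm regions had a median of 0.222 CPM, and arm regions in runs of 10 or more had 3.72 CPM. Inside genes the same classes had 0.690 and 4.25 CPM, so long arm runs came close to the level of gene bodies.

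**Figure D2:**
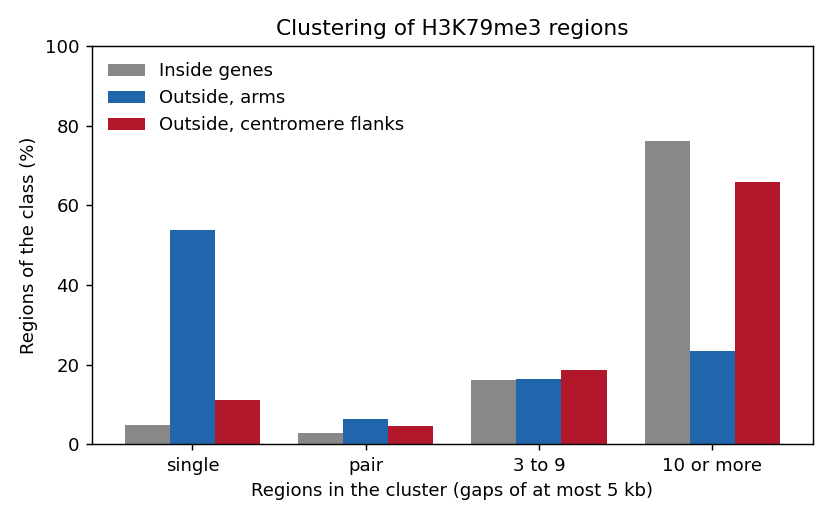
Share of regions (%) by the number of regions in their cluster, joined at gaps of at most 5 kb, for inside regions and both kinds of outside regions. Arm regions mostly stand alone (53.9%), while flanking regions are mostly in runs (84.4%).

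The largest runs were chr10:39081384-39154961 with 79 regions, chr4:49093181-49163891 with 78 and chr2:92267385-92326154 with 71, all flanking. The first had 482 CPM (DLD1), 528 (SA), 344 (SPH) and 312 (METS), summed over its regions. The second had 651, 679, 465 and 464 CPM, and the third 734, 796, 484 and 498 CPM. The run with the highest sum among the largest 10, chr10:42355387-42409484 with 62 regions, had 12640, 13484, 7391 and 7201 counts. In each of these runs SPH and METS lay close to each other and below both DLD1 and SA.

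The H3K79me3 CPM summed over the centromere flanks was lower in SPH and METS than in DLD1, and close to DLD1 in SA. Summed over the 1631 regions, the CPM was 0.677 of DLD1 in SPH (0.670 to 0.684), 0.674 in METS (0.667 to 0.681) and 1.07 in SA (1.06 to 1.08). Inside regions within the same 5 Mb had 0.969, 1.0 and 1.02 in that order, and arm regions had 0.962, 0.951 and 0.998. The share of all chromosome 1 to 18 counts lying in flanking regions was 1.52% (DLD1, 1.51 to 1.53), 1.62% (SA), 1.05% (SPH) and 1.04% (METS). In arm regions it was 0.653%, 0.647%, 0.640% and 0.630%. The summed arm shares were thus close to each other, although single arm runs differed in both directions, as given below.

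The lower level was shared by most chromosomes and most runs. By chromosome, the flanking sum in SPH was between 0.587 and 0.906 of DLD1, and its interval lay below 1 on 17 of 18 chromosomes. In METS it was between 0.530 and 1.16, with 17 intervals below 1. The exception in METS was chromosome 13, at 1.16 (1.04 to 1.29). SPH and METS were both below DLD1 and SA on 17 of 18 chromosomes. Among flanking runs with at least 50 counts in the 2 libraries compared, the median log2 ratio to DLD1 was -0.57 in SPH (quartiles -0.68 and -0.47), -0.52 in METS and 0.11 in SA. SPH was below DLD1 in 81 of 82 such runs and METS in 79 of 83. Among inside runs it was 4209 of 7089 in SPH and 2827 of 7394 in METS. SPH and METS together were below both DLD1 and SA in 78 of 88 flanking runs (88.6%) and 22 of 97 arm runs (22.7%). Inside runs gave 21.2%, and all runs together 22%. This parting of the lines was noticed in the data and is given as a description.

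**Figure D3:**
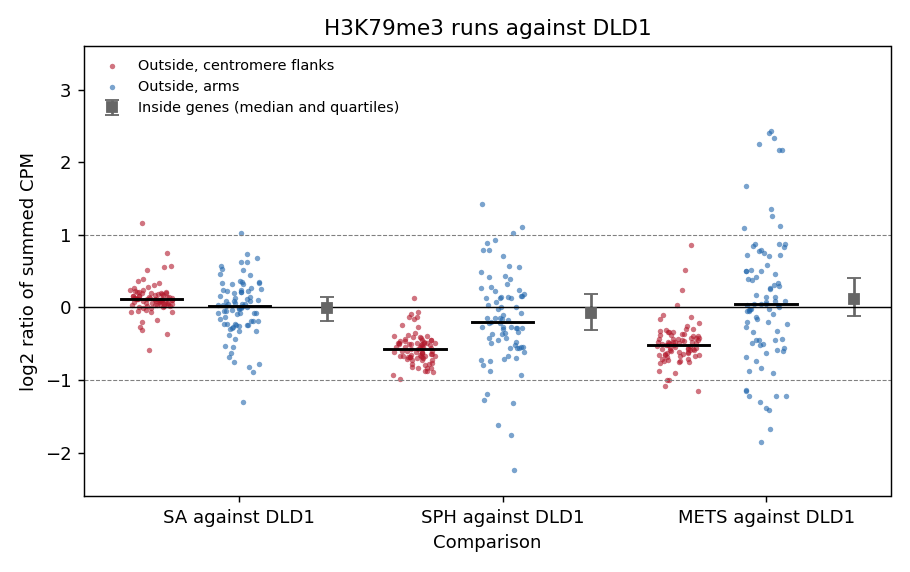
log2 ratio of summed CPM to DLD1 for each outside run with at least 50 counts, by derivative, with the median as a black bar. Grey squares give the median and quartiles of inside runs, and dashed lines mark 2-fold. Flanking runs form a narrow band below 0 in SPH (median -0.57) and METS (median -0.52), whereas arm runs scatter widely, most of all in METS.

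The band of flanking runs was narrow. Among runs with at least 5 regions of a mean of 10 counts or more, the SD of the run medians was 0.162 in SPH and 0.184 in METS on the log2 scale. Arm runs had 0.477 and 0.738, and inside runs 0.375 and 0.382. The ratio varied little with distance from the stretch up to 5 Mb. Outside regions within 0.1 Mb of it had 0.669 of the DLD1 level in SPH and 0.654 in METS, those 1 to 5 Mb away 0.731 and 0.757, and those 5 to 20 Mb away 0.970 and 0.916.

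H3K4me3 regions lay beside most flanking regions, at a level far below that inside genes, and they went the other way. Within 5 kb of an H3K4me3 region were 1414 flanking regions (86.7%), 523 arm regions (21.8%) and 36.9% of inside regions, and 61.3%, 5.66% and 7.50% overlapped one. The 1341 H3K4me3 regions that were themselves outside genes and flanking held 0.825% of the DLD1 library, 0.750% of SA, 1.16% of SPH and 1.08% of METS. Against DLD1 this was 0.908 in SA (0.898 to 0.919), 1.40 in SPH (1.39 to 1.42) and 1.31 in METS (1.30 to 1.32). H3K4me3 regions outside genes on the arms had 0.871, 0.995 and 0.924, and those inside genes 1.01, 0.989 and 1.0. Near flanking runs, H3K4me3 was higher in both SPH and METS than in DLD1 and SA in 73 of 82 runs (89.0%) and lower in 0. Near arm runs it was higher in 11 of 55 (20%) and lower in 6 (10.9%). At chr10:42355387-42409484 the 59 H3K4me3 regions in or within 5 kb of the run had 5594 counts (DLD1), 5997 (SA), 8990 (SPH) and 9200 (METS). The 2 marks came from separate libraries, each scaled to its own total, and the cause of their opposite order was not tested.

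**Figure D4:**
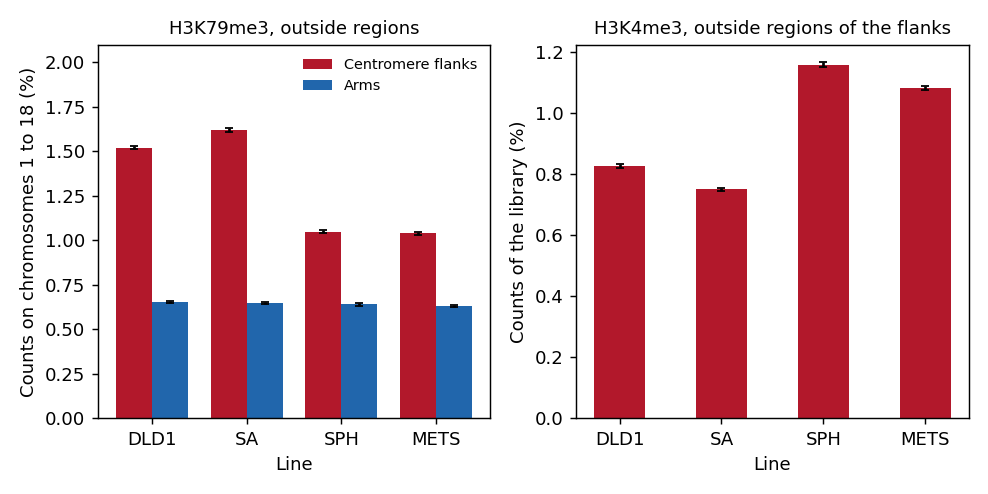
Left, share of chromosome 1 to 18 H3K79me3 counts (%) in flanking and arm regions outside genes, by line. Right, share of all H3K4me3 counts of a line (%) in H3K4me3 regions outside genes in the flanks. Error bars are exact 95% binomial intervals for counting error, with 1 library per bar. For H3K79me3, SPH (1.05%) and METS (1.04%) lie below DLD1 and SA, and for H3K4me3 they lie above.

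Over all counts and both directions, single outside regions passed a 2-fold difference from DLD1 about as often as other regions in SA and SPH. Among regions with at least 5 mean counts in SPH, and over all regions in METS, losses were more frequent outside genes. A fold here is the ratio of CPM after adding 0.5 CPM. In SA, 60 outside regions were higher (1.49%) and 63 lower (1.56%), where the whole table gave 1.08% and 2.30%. In SPH, 57 were higher (1.41%) and 258 lower (6.39%), against 3.03% and 5.11% in the whole table. With TMM factors, which add 0.11 to every log2 ratio of SPH before the 0.5 CPM is added, these counts were 82 and 210. Under 5 mean counts over the 4 lines lay 44.5% of outside and 5.59% of inside regions. There, 2.40% of outside and 4.42% of inside regions were lower in SPH. From 20 to 40 counts it was 12.5% and 5.55%, from 40 to 80 counts 4.58% and 2.49%, and at 80 counts or more 2.33% and 0.537%. Higher in SPH from 20 to 40 counts were 1.30% and 2.57%. In METS, 310 were higher (7.68%) and 191 lower (4.73%), against 7.14% and 2.06%, and TMM factors gave 263 and 240. Most of the gains in METS were arm regions, 286 of 2404 (11.9%), with 24 in the flanks.

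Among arm regions in METS, the higher ones were mostly weak and many of the lower ones were strong. Weak regions cross a fold threshold more easily by counting error, so regions were compared within classes of mean count. Under 5 counts, 12.4% of arm regions and 20.4% of inside regions were higher in METS, and from 5 to 10 counts 21.5% and 16.0%. From 40 to 80 counts, 33.3% of arm regions but 3.67% of inside regions were lower in METS, and at 80 counts or more 22.8% and 3.41%. In all, 77 of the 263 arm regions with at least 40 counts (29.3%) were lower. They lay in 20 clusters, with 48 on chromosome 4, 15 on chromosome 17 and 10 on chromosome 14. One run on chromosome 4 held 31 of them, and without it 46 of 215 (21.4%) were lower. Summed over the 1296 single arm regions, METS had 1.33 times the CPM of DLD1 (1.28 to 1.38), SPH 0.892 and SA 0.981. Weak regions inside genes were higher in METS as well. Under 5 counts the median log2 ratio was 0.335 on the arms and 0.391 inside genes. From 5 to 10 counts it was 0.474 and 0.462.

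Whole runs on the arms also parted most in METS. Of 89 arm runs with at least 50 counts, 10 were 2-fold higher and 10 were 2-fold lower in METS (11.2% each), against 4.08% higher and 0.925% lower among all runs outside and inside genes. In SPH, 2 of 79 were higher (all runs, 1.59%) and 6 were lower (1.63%). In SA, 1 of 83 arm runs was lower (0.707%) and 0 were higher (0.218%).

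The arm run with the most regions was lower in METS. It was chr4:187718872-187771884, with 53 regions over 53.0 kb and 5275 counts (DLD1), 5476 (SA), 3594 (SPH) and 2038 (METS). These were 701, 753, 583 and 317 CPM, so METS had 0.452 of DLD1 (0.429 to 0.476), SPH 0.831 and SA 1.07. Across this run and its neighbours over 150.4 kb, METS was the lowest of the 4 lines in 72 of 75 outside regions. Regions inside genes within 500 kb had 0.663 of DLD1 in METS, so the gene regions nearby were lower too, by less. The 5 H3K4me3 regions at the run had 65.3, 68.5, 73.0 and 57.8 CPM, and the METS value was 0.885 of DLD1 (0.772 to 1.01).

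Of the 10 arm runs past 2-fold lower in METS, 6 lay on chromosome 4, 3 on chromosome 17 and 1 on chromosome 14. On chromosome 4, chr4:75403022-75407500 had 37.1 CPM (DLD1), 25.4 (SA), 29.0 (SPH) and 10.3 (METS), a METS level of 0.277 of DLD1 (0.208 to 0.363). Its neighbours chr4:75547746-75559466 and chr4:75575897-75586478 had 0.377 (0.306 to 0.461) and 0.312 (0.255 to 0.379). Inside regions within 500 kb of these 3 runs had 0.668. On chromosome 14, 5 runs within chr14:54430735-54648110 had together 226 CPM (DLD1), 258 (SA), 231 (SPH) and 121 (METS). METS was at 0.537 of DLD1 (0.492 to 0.585), while inside regions within 500 kb were at 0.873. METS was below the other 3 lines in each of these groups, and SA and SPH did not share one direction across them.

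The largest run that was higher in METS lay on chromosome 7. The run chr7:16983581-17058731, with 50 regions over 75.2 kb, had 352 counts (DLD1), 220 (SA), 119 (SPH) and 962 (METS). Its CPM was 46.8, 30.2, 19.3 and 150 in that order, or 3.20 times DLD1 in METS (2.83 to 3.62) and 0.412 in SPH (0.332 to 0.509). A run next to it, chr7:16956301-16971836 with 18 regions, had 28.5, 11.5, 6.0 and 128 CPM. METS there was 4.50 times DLD1 (3.87 to 5.26), SA 0.406 (0.312 to 0.525) and SPH 0.211 (0.145 to 0.300). Across both runs METS was the highest line in all 68 regions, with a median of 3.19 CPM above the 0.931 of DLD1, 0.481 of SA and 0.324 of SPH.

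**Figure D5:**
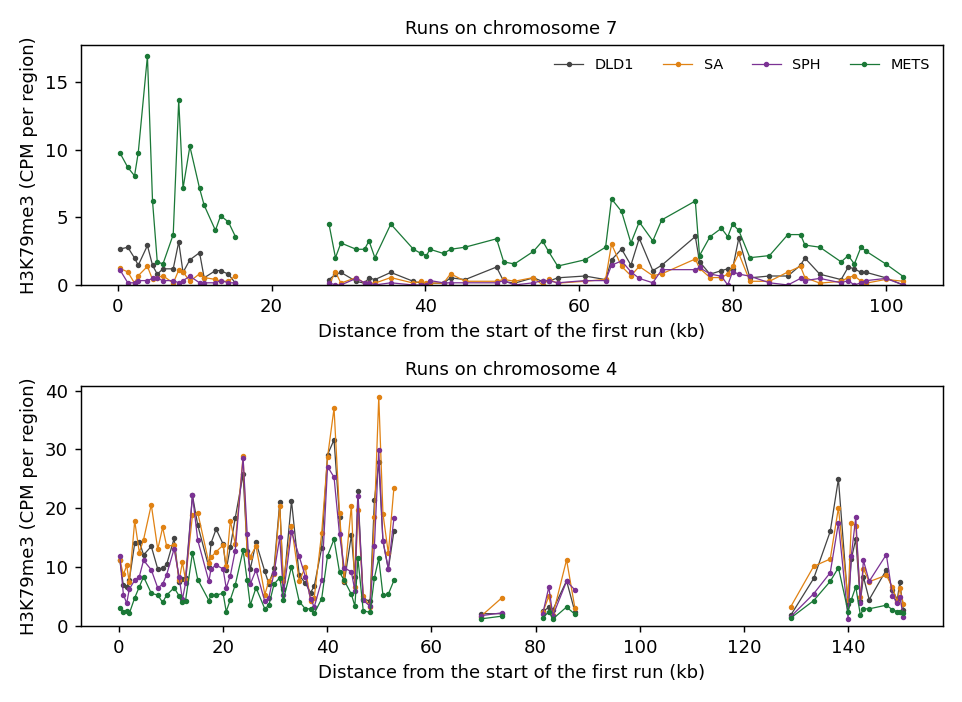
H3K79me3 (CPM per region) along 2 groups of outside regions on the arms of chromosomes 7 and 4, around the 2 arm runs with the most regions, against the distance from the start of the first run (kb). Each point is a region, each colour a line, and lines break at wide gaps. METS lies above the other lines in all 68 regions on chromosome 7 and is the lowest in 72 of 75 on chromosome 4.

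H3K4me3 beside the shorter chromosome 7 run was also higher in METS. Its 2 H3K4me3 regions had 31 counts (DLD1), 30 (SA), 18 (SPH) and 105 (METS), which was 3.12 times DLD1 in METS (2.07 to 4.82). The 1 H3K4me3 region beside the longer run had 35, 44, 63 and 28 counts, with METS at 0.736 of DLD1 (0.432 to 1.25). Both runs belong to a group of 3 runs, chr7:16956301-17394609. Inside regions within 500 kb of that group were at 1.03 in METS and 0.901 in SPH. The nearest gene with at least 5 H3K79me3 regions had a log2 ratio of -0.04 in METS, -0.53 in SPH and -0.25 in SA.

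Smaller runs were also higher in METS. The run chr17:61061367-61067562 had 10 counts (DLD1), 11 (SA), 14 (SPH) and 46 (METS), 5.38 times DLD1 (2.68 to 12). The run chr4:184720919-184727039 had 13, 17, 11 and 59 counts, 5.31 times DLD1 (2.88 to 10.5), beside 3 H3K4me3 regions at 1.26 times (1.16 to 1.37). The run chr6:21576851-21588782 stood at 5.02 times (2.93 to 9.08), beside 3 H3K4me3 regions at 0.901 times (0.790 to 1.03). No H3K4me3 region lay within 5 kb of the chromosome 17 run or of chr2:220635140-220640652. The latter run stood at 4.77 times (2.56 to 9.53). METS was the highest line in each of these runs, and SA was also at 2.31 times DLD1 (1.16 to 4.83) in the last. With 9 to 29 counts in each other library, these intervals are wide. A larger one, chr11:1527614-1559035 with 30 regions, had 86.3 CPM (DLD1), 63.7 (SA), 105 (SPH) and 184 (METS), 2.14 times DLD1 (1.94 to 2.35).

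In SPH, the clearest gain was chr17:79312373-79320855, with 10 regions and 1164 counts (DLD1), 1255 (SA), 2568 (SPH) and 1823 (METS). SPH was at 2.69 times DLD1 (2.51 to 2.89) and METS at 1.83 (1.70 to 1.97). The run holds the strongest arm region, chr17:79316513-79316984, with 37.9, 41.8, 103 and 70.4 CPM. It also holds chr17:79315315-79315854, with 27.3, 32.7, 111 and 69.0 CPM, 4.09 times DLD1 in SPH (3.49 to 4.80). SPH was the highest line in both, followed by METS. The H3K4me3 regions there were nearly level, at 1.05 times DLD1 in SPH (0.95 to 1.15). The run chr16:85588483-85608280 had 137, 163, 294 and 168 CPM, 2.15 times DLD1 in SPH (1.99 to 2.32).

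Runs lower in SPH were mostly small. The run chr12:20952910-20958396 had 74 counts (DLD1), 63 (SA), 18 (SPH) and 55 (METS), a SPH level of 0.297 of DLD1 (0.167 to 0.502). The run chr17:63504115-63509223 had 56, 64, 15 and 45 counts and 0.327 (0.172 to 0.586). SPH alone was low in these. The run chr17:13571245-13573946 had 31.1, 31.2, 12.5 and 12.6 CPM, with SPH at 0.401 (0.306 to 0.521) and METS at 0.405 (0.310 to 0.523). H3K4me3 beside it was lower in the same lines, with 101 counts (DLD1), 89 (SA), 50 (SPH) and 40 (METS). A larger run, chr17:46729947-46754748 with 29 regions, had 409, 361, 253 and 418 CPM and 0.618 in SPH (0.581 to 0.657).

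Differences from DLD1 in SA were small. The run chr11:50724540-50732135, in a flank, had 29 counts in DLD1 and 63 in SA, 2.25 times DLD1 (1.43 to 3.62). The run chr2:199642401-199646754 had 24 counts (DLD1), 47 (SA), 29 (SPH) and 92 (METS), and was 2.02 times DLD1 in SA (1.21 to 3.46) before 0.5 CPM was added. The shorter chromosome 7 run was the 1 run in SA past 2-fold downward.

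Arm runs tended to differ from DLD1 in the direction of the nearest gene that held at least 5 H3K79me3 regions. They lay on the same side of DLD1 as that gene in 60 of 79 runs in SPH, 59 of 89 in METS and 50 of 83 in SA. Over 79 runs beside 61 genes the Pearson correlation of the log2 ratios was 0.65 in SPH, over 89 runs 0.51 in METS and over 83 runs 0.39 in SA. These are descriptions across runs that share libraries and in part genes. The median distance to that gene was between 36.7 and 40.4 kb. In the flanks it was at least 1290.4 kb, and the correlations lay between -0.04 and 0.12. Flanking runs lay on the same side as the gene in 48 of 82 (SPH), 37 of 83 (METS) and 49 of 85 (SA). At chr16:85588483-85608280, for example, the nearest such gene had a log2 ratio of 1.03 in SPH, and at chr17:79312373-79320855 it had 1.30. Other runs differed from their gene. At chr7:16956301-16971836 the gene had -0.04 in METS, where the run had 2.17. At chr17:63504115-63509223 the gene had 0.18 in SPH, where the run had -1.61.

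The mesenchymal pair SA and SPH was compared with the epithelial pair DLD1 and METS by edgeR's quasi-likelihood test over the whole table, with each line as 1 replicate of its state. At a Benjamini-Hochberg adjusted p of 0.05, 0 of 3692 outside regions with a count were called, as were 0 of all 156120 (0%). At an unadjusted p under 0.05 there were 116 outside regions (3.14%), against 2.99% of all regions tested. They were 4 of 1457 flanking regions (0.27%) and 112 of 2235 arm regions (5.01%). The outside regions with the smallest p lay mostly in the chromosome 7 runs described above. The DESeq2 Wald test also called 0, with 49 outside regions (1.33%) and 0.644% of all regions at an unadjusted p under 0.05. Without DLD1 edgeR called 23 outside regions, without SA 11, without SPH 6 and without METS 0, all on the arms and lower in the mesenchymal lines. The whole table gave 345 calls (0.221%), 206 (0.132%), 76 (0.0487%) and 0 in that order, of which 317, 169 and 74 were lower too. The flanks, where SPH differed from SA and METS from DLD1, did not part by labelled state. Of 185 runs with at least 50 counts over the 4 libraries, 27 were lower in both mesenchymal lines than in both epithelial lines and 16 were higher. The gap reached 2-fold in 1 of them, chr7:16956301-16971836. The matching shares among inside runs were not computed, so the counts of 27 and 16 are not read as an effect of state.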

How the data were processed

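H3K79me3 and H3K4me3 were measured by ChIP-seq in 4 lines, with 1 library per line and mark. The deposited values are unnormalised counts of reads in each region, since they are whole numbers with unequal totals. The build was hg19 per the submitters' processing notes. The aligner, region caller and counter are not given in the sources used here, and no input library was used. The H3K27me3 table was used for its intervals only. It was held in part, with 50000 intervals and a line stating that 7773 were skipped, which is why chromosomes 1 to 18 were used.

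Counts were divided by the library total (CPM), and 0.5 CPM was added before a 2-fold threshold. Runs were joined at 5 kb and compared by summed counts, with exact Clopper-Pearson intervals (SciPy 1.17.1). edgeR 4.0.16 and DESeq2 1.42.0 were run in R 4.3.3. Both the steps and the edgeR model were run on simulated data as a check of the code. Only regions with higher counts were changed in these simulations, so they do not bear on calls among weaker regions. Regions are not replicates, and 1 library per line allows no test against DLD1. The p-values of the state comparison measure only the spread between these 4 lines.

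Named regions were the 10 clusters with most regions, the 10 strongest regions, and the 5 runs each way per derivative and by state with the largest differences among those with at least 50 counts. The first 2 lists were repeated for the arms after the values were seen, and examples from each list are printed. Groups of runs are arm runs within 500 kb of each other. The regions and lists were chosen with earlier results of these data known. Alternatives were TMM factors, other added values, thresholds, distances, joining gaps, filters, and leaving out each line. No genome of build hg19 was used, so no sequence is printed, and chromosomes 19 to 22, X and Y were not analysed here.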

Additional observations from a re-analysis of the deposited data

How the results depend on the processing

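Counts of outside regions past 2-fold depended on the settings. The number in SA was 123, and it was 895 with 0.1 CPM added, 3 with 2 CPM added, 709 at 1.5-fold, 7 at 3-fold, 6 among regions at or above the median level, 188 beyond 1 kb and 71 beyond 20 kb from a gene. In SPH it was 315, and 1097, 43, 1160, 40 and 82 under the first 5 of these, 188 beyond 20 kb and 194 without the flanks. In METS it was 501, and 1218, 116, 1455, 94 and 146 under the first 5, and 289 beyond 20 kb. Among the regions of METS at or above the median level, 19 were higher and 127 lower, against 310 and 191 in all, and with 2 CPM added 45 were higher and 71 lower. In SA, 60 higher and 63 lower became 64 and 58 with TMM factors, 460 and 435 with 0.1 CPM added and 376 and 333 at 1.5-fold. Before any CPM was added, TMM factors shifted every SPH log2 ratio by 0.11 and every METS ratio by -0.08, and ratios of weak regions shifted by less afterwards. The median of flanking runs, taken without added CPM, was then -0.47 in SPH and -0.60 in METS.

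The ratio of outside to inside median level was 0.280, between 0.256 and 0.294 leaving out each line, and 0.154 without the flanks. There were 947 clusters beyond 20 kb from a gene, against 1804. The share of counts in outside regions beyond 1, 10 and 20 kb and without the flanks was 2.77%, 1.79%, 1.45% and 0.653% in DLD1, and 2.86%, 1.88%, 1.53% and 0.647% in SA. It was 2.31%, 1.38%, 1.04% and 0.640% in SPH, and 2.27%, 1.36%, 1.03% and 0.630% in METS. Runs past 2-fold numbered 2 in SA and 1 without the flanks, and 8 in SPH and 18 when joined at 2 kb. The edgeR test called between 0 and 23 outside regions leaving out each line, namely 23 without DLD1, 11 without SA, 6 without SPH and 0 without METS, all on the arms and all lower in the mesenchymal lines, beside 345, 206, 76 and 0 calls in the whole table, of which 317, 169 and 74 were lower. The lone line of a state was then assumed to vary like the other state. No paired analysis was possible because each line and mark has 1 library.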

Other observations

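Some runs were nearly empty. In 19 outside runs with 87 regions, fewer than 10 reads had been counted in the 4 H3K79me3 libraries together, 13 of them on arms and 6 in the flanks. The run chr16:21935573-21943579 has 11 regions and 2 counts in all, and chr5:70016532-70028822 has 8 regions and 0 counts. Chromosome 5 held 4 such runs with 24 regions. The deposited region set thus includes clusters of regions in which these libraries have almost no counts.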
